A study of Mus musculus with 2 samples.

Results

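Aquaporins are small membrane proteins that let water pass through cell membranes along an osmotic gradient. The orthodox members carry mainly water. Aquaglyceroporins also carry glycerol, and several members also carry hydrogen peroxide. In the intestinal epithelium, water follows the salts and nutrients that enterocytes absorb and the chloride that crypt cells secrete, and aquaporins add to the water permeability of these cells.

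The 7 aquaporins Aqp1, Aqp3, Aqp4, Aqp5, Aqp7, Aqp8 and Aqp11 were chosen by gene symbol, and 6 of them are listed among the 19294 genes of the count table. Aqp5 is not listed. No gene in the table has a count of 0 in either library, so genes without reads in one of them would not appear, and no value is given for Aqp5. Of the aquaporins outside this choice, Aqp9 is listed, whereas Mip, Aqp2, Aqp6 and Aqp12 are not.

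The RNA came from mouse intestinal organoids (mIOs), which were grown from jejunal crypts and carried Lgr5-EGFP-IRES-creERT2, a reporter genotype in which EGFP and an inducible Cre are expressed from the Lgr5 locus. One group was an untreated control and the other was treated for 4 days with dextran sulfate sodium (DSS), a polymer used to injure intestinal epithelium. Both groups had this genotype, the organoid medium with EGF, Noggin and R-spondin, and the same day 4 label, and each is 1 library. The DSS concentration used for sequencing and the number and age of the mice are not given in the sources used here.

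Sequencing depth was 65493032 counts for control mIOs and 59746968 for DSS-treated mIOs. Counts were scaled with TMM (trimmed mean of M-values) factors, and a level is given in CPM, counts per 1000000 of the scaled library. Differences are log2 ratios of CPM in DSS-treated over control mIOs, and their 95% intervals are exact (Clopper-Pearson). Since each group is 1 library, there is no replicate check and no test, and all intervals reflect counting error alone. The samples are labelled as intestinal stem cells, and the markers showed a mixed epithelium. The summed level of 10 stem cell markers was 1390 CPM in control and 277 CPM in DSS-treated mIOs, and that of 13 enterocyte markers was 3799 and 27222 CPM.

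The family divided by direction. Aqp1 and Aqp4, which held most aquaporin reads in the control, were lower in DSS-treated mIOs, while Aqp3 and Aqp7 were higher and Aqp11 differed little. Of the 6 listed aquaporins, 3 were at least 2-fold higher in the DSS library, against a background of 19.3% of the 17235 genes tested, those reaching 10 counts in either library, and 2 were at least 2-fold lower, against 20.2%. The same 5 genes were past a 4-fold difference, which 7.87% of all genes passed upwards and 6.54% downwards. Aqp8 met the minimum of 10 counts only through the DSS library, where it is higher. Without it, 2 of 5 aquaporins were at least 2-fold higher, against 16.8% of the 15666 genes that reached 10 counts in each library, and 2 of 5 lower, against 18.9%. When libraries were scaled by total counts instead, all ratios dropped by 0.26 on the log2 scale and the split over all genes moved from 3330 higher and 3486 lower to 2659 and 4508, but the same numbers of aquaporins, 3 and 2, were past the 2-fold line.

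**Figure D1:**
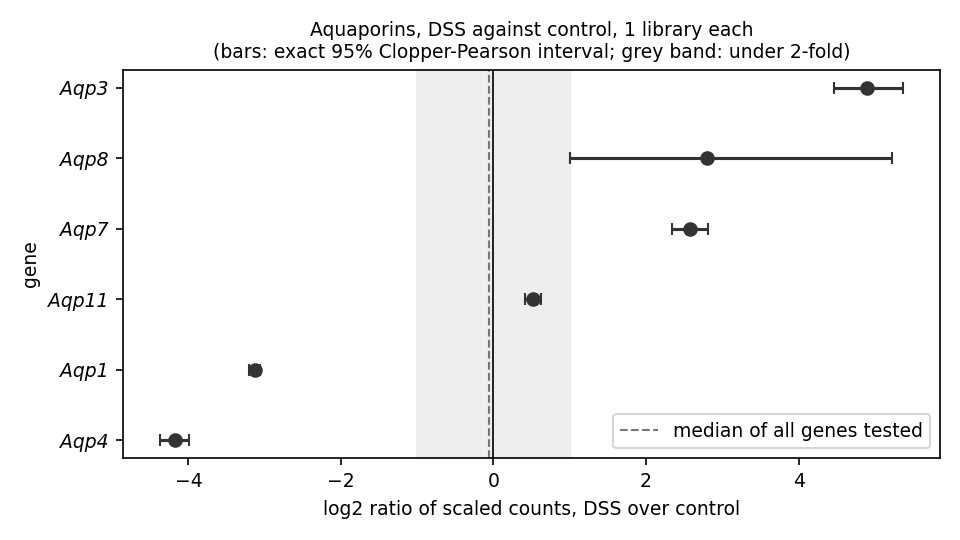
Log2 ratios of CPM in DSS-treated over control mIOs for the 6 listed aquaporins, with 95% Clopper-Pearson intervals as bars, the range under 2-fold in grey and the median of all genes (-0.06) as a dashed line. Aqp4 and Aqp1 lie left of the grey band at -4.18 and -3.13, Aqp7 and Aqp3 lie right of it at 2.57 and 4.90, Aqp11 lies inside it, and the wide bar of Aqp8 reaches its edge.

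Aqp1, the water channel of red blood cells, the kidney proximal tubule and capillary endothelium, had 19835 counts in control mIOs and 1730 in DSS-treated mIOs. The level fell from 277 CPM (exact Poisson 95% interval 273 to 281) to 31.6 CPM (30.2 to 33.2). The log2 ratio of -3.13 (-3.20 to -3.06) corresponds to a level 8.76-fold lower (8.34 to 9.20), and 380 of the 17235 genes had a lower ratio. In the control library, only 2.77% of the genes tested had a higher CPM than Aqp1.

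Since Aqp1 is a known endothelial gene, markers of that cell type were read beside it. Of 15 endothelial markers, 9 are listed, and Cdh5, Kdr, Cldn5, Emcn, Plvap and Flt4 are not. The 9 summed to 30.9 CPM in control and 23.9 CPM in DSS-treated mIOs. Egfl7, Esam and Lyve1 made up most of the control sum, at 10.3, 7.31 and 9.61 CPM. Against 20.2% of all genes tested, 2 of the 8 endothelial markers tested were at least 2-fold lower, as Aqp1 was. They were Egfl7 at -1.59, from 735 to 186 counts, and Esam at -1.94, from 523 to 104 counts. Lyve1 was at 0.06. At least 2-fold higher were 3 markers with few reads, against 19.3% of all genes tested. These were Pecam1 from 12 to 55 counts, Tek from 12 to 97 and Tie1 from 5 to 29. The part of endothelial cells in the Aqp1 values was not tested. Of 8 erythroid markers, Epb42 alone is listed, at 3.07 CPM in control and 1.10 CPM in DSS-treated mIOs.

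Aqp4 is the main water channel of astrocytes and is also known from the crypts of the mouse small intestine. Its counts were 5891 in control and 248 in DSS-treated mIOs. This was 82.3 CPM (80.2 to 84.4) against 4.54 CPM (3.99 to 5.14). The log2 ratio of -4.18 (-4.37 to -4.00) was the lowest of the family, or 18.1-fold lower (16.0 to 20.7), and 113 genes had a lower one. The stem cell markers moved in the same direction, since 10 of 10 were at least 2-fold lower, against 20.2% of all genes tested. The median log2 ratio of these markers was -2.91. Their part in the values of Aqp4 and Aqp1 was not tested, and in bulk RNA fewer cells of a type and less RNA per cell cannot be told apart. Olfm4 at -9.59 and Ascl2 at -4.31 were the lowest of these markers.

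Aqp3, an aquaglyceroporin of basolateral membranes that also carries hydrogen peroxide, was the member with the highest ratio. Control mIOs gave 45 counts and DSS-treated mIOs 1027, or 0.629 CPM (0.459 to 0.841) against 18.8 CPM (17.7 to 19.97). Its log2 ratio was 4.90 (4.47 to 5.37), a 29.9-fold higher level (22.2 to 41.2). Only 62 of 17235 genes had a higher ratio. The control value rests on few reads, which sets the width of the interval.

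Aqp7, an aquaglyceroporin best known for releasing glycerol from fat cells, went from 185 counts in control to 842 in DSS-treated mIOs. This was 2.58 CPM (2.23 to 2.99) against 15.4 CPM (14.4 to 16.5). The resulting log2 ratio was 2.57 (2.34 to 2.81), or 5.96-fold higher (5.08 to 7.02), and 821 genes had a higher ratio. None of 6 adipocyte markers (Adipoq, Plin1, Lep, Retn, Fabp4 and Cfd) is listed in the table.

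The enterocyte markers were higher alongside Aqp3 and Aqp7. All 13 were at least 2-fold higher in the DSS library, against 19.3% of all genes tested, with a median log2 ratio of 2.40. Apoa1 at 5.27 and Apoa4 at 4.54 had the largest differences among these markers. All 9 goblet cell markers were also at least 2-fold higher, with a median of 3.25, led by Clca1 at 9.29 and Zg16 at 8.64. Of 10 enteroendocrine markers, 9 were at least 2-fold higher and 1 was lower, with a median of 2.32. Which of these cells hold the Aqp3 and Aqp7 reads was not tested. By RT-PCR, the study reported similar levels of Vil1, Muc2 and Chga in DSS-treated mIOs. In the 2 libraries here their log2 ratios were 1.25, 4.98 and 2.60. Its RT-PCR found Lgr5 and Lyz decreased, and here Lgr5 was at -3.78 and Lyz1 at -1.06. The reason for the difference in the first 3 genes was not tested.

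The promoters of Aqp1, Aqp3 and Aqp7 are shown so that the sequence at the starts of a strongly lower and of the 2 most clearly higher aquaporins can be read. They are taken from RefSeq (build GRCm38.p6), from 250 bases before to 50 after the annotated start, and are written 5′ to 3′ on the strand of the gene. A search of both strands for 6 sets of letters, chosen after the ratios were known, covered TATAAA of the TATA box, TTTATG for CDX factors, AGATAA for zinc finger factors of the Gata family, CTTTGAT for TCF/LEF factors, CAAAGTCC for Hnf4 and GTTAAT for Hnf1. Matches are in capitals. The Aqp1 gene starts further downstream in GENCODE vM21, at 55336432 of GRCm38.
Aqp1, chr6:55336049-55336348, plus strand: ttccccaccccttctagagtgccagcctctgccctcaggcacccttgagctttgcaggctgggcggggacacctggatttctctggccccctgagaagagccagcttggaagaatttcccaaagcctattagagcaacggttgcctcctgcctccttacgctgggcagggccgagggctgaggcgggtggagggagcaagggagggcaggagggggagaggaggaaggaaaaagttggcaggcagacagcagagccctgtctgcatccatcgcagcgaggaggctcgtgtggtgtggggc
Aqp3, chr4:41098134-41098433, minus strand: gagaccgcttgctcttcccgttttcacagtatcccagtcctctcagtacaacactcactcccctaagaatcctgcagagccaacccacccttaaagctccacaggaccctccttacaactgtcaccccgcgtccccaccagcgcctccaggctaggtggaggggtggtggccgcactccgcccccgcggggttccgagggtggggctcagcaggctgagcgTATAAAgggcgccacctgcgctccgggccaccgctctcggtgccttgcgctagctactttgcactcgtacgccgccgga
Aqp7, the outer of its 2 annotated starts, chr4:41048087-41048386, minus strand: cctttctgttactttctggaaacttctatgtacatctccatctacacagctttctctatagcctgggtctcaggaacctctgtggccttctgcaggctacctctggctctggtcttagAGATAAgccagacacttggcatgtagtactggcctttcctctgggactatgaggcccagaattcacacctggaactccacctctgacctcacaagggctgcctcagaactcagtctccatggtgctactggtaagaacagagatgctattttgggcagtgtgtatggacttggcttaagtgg

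Aqp3 has TATAAA with its first base 29 bases before the start, letters held by 13.6% of the 32851 promoters searched. The Aqp7 window has AGATAA with its first base 132 bases before the start, which 11.2% of promoters hold. No match to any of the 6 sets was found in the windows of Aqp1, Aqp8 and Aqp11 or at the inner start of Aqp7. Aqp4, the member with the lowest ratio, was not searched. The other letters were in 11.9% (TTTATG), 3.73% (CTTTGAT), 1.42% (CAAAGTCC) and 7.10% (GTTAAT) of all promoters. A match is a description of letters and not of a factor bound there. The Aqp3 window held 21 CpG dinucleotides and the printed Aqp7 window 0, against a median of 7 over all promoters.

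Aqp8, a channel for water and hydrogen peroxide that is known from the colonic surface epithelium, was near the limit of detection. There were 3 counts in control mIOs and 16 in DSS-treated mIOs, or 0.0419 CPM (0.00864 to 0.122) against 0.293 CPM (0.167 to 0.475). Its log2 ratio of 2.80 had an interval from 0.999 to 5.22, so that counting error alone leaves the fold of 6.98 anywhere between 1.998 and 37.4. In the control, 99.3% of the genes tested had a higher CPM. Of the colon markers, Slc37a2 was at 0.54, from 186 to 206 counts.

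Aqp11, a distant member of the family that is placed in the endoplasmic reticulum, was the one aquaporin under a 2-fold difference. It had 1574 counts in control and 1722 in DSS-treated mIOs, or 22.0 CPM (20.9 to 23.1) against 31.5 CPM (30.0 to 33.0). The log2 ratio was 0.52 (0.42 to 0.62), a 1.43-fold higher level (1.34 to 1.53), and 0.26 when scaled by total counts. Aqp9, an aquaglyceroporin known for glycerol uptake in liver, was outside the chosen members and went from 12 counts in control to 37 in DSS-treated mIOs, a log2 ratio of 2.01 (1.04 to 3.09).

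Levels of different genes were compared per length, as CPM per kb of the longest coding transcript in GENCODE vM21. In the control, Aqp1 stood at 105 CPM per kb, followed by Aqp4 at 16.3, Aqp11 at 5.89, Aqp7 at 1.02, Aqp3 at 0.356 and Aqp8 at 0.0282. No neighbours in this order had overlapping counting intervals. In the DSS library the 4 leading genes lay within a narrow range, with Aqp1 at 12.0 CPM per kb, Aqp3 at 10.6, Aqp11 at 8.43 and Aqp7 at 6.09, ahead of Aqp4 at 0.898 and Aqp8 at 0.197. Here Aqp1 and Aqp3 were separated by little more than their counting intervals (11.5 to 12.6 and 10.002 to 11.3). With the median length of the coding transcripts, Aqp11 at 13.6 CPM per kb came before Aqp1, so the order of the leading genes depends on the transcript taken. Aqp4 stood at 64.6 CPM per kb in control and 3.56 in DSS-treated mIOs with that length, and kept its place in both orders. Aqp4 has 9 annotated coding transcripts, and the gene counts do not tell them apart.

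**Figure D2:**
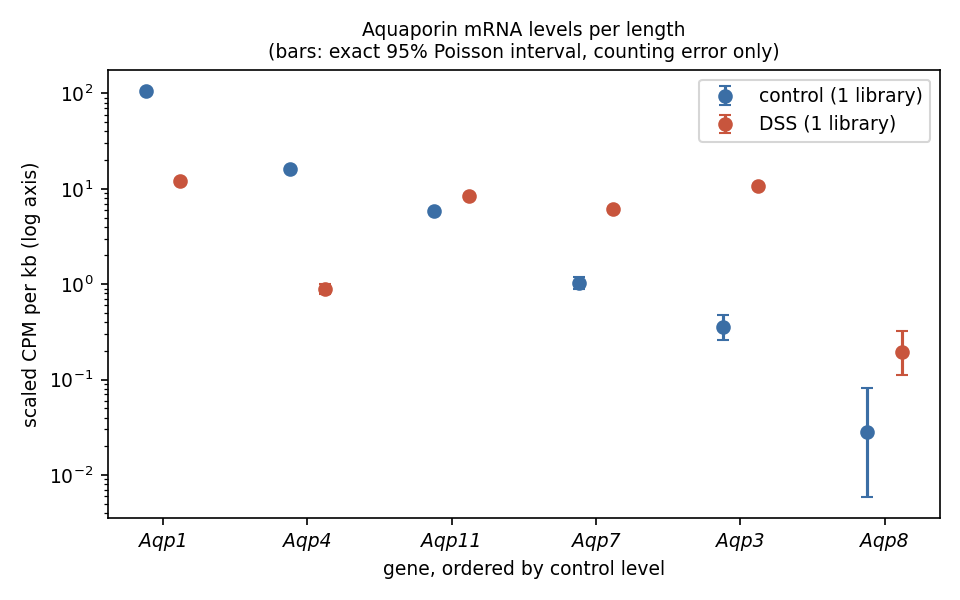
Level of each listed aquaporin in CPM per kb of its longest coding transcript, on a log axis, in the control library (blue) and the DSS library (red), with exact 95% Poisson intervals as bars. The control levels run from 105 (Aqp1) down to 0.0282 (Aqp8), whereas in the DSS library Aqp1, Aqp3, Aqp11 and Aqp7 lie between 6.09 and 12.0.

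The aquaporin reads as a whole were fewer in DSS-treated mIOs. The 6 genes together went from 27533 counts in control to 5585 in DSS-treated mIOs, 385 CPM against 102 CPM. The log2 ratio of the sum was -1.91 (-1.95 to -1.87). Per length, the summed level was 129 CPM per kb against 38.3 CPM per kb. The make-up of this sum differed as well. Aqp1 took 72.0% of the aquaporin reads in control mIOs (71.5 to 72.6, exact binomial interval) and 31.0% in DSS-treated mIOs (29.8 to 32.2). Aqp4 went from 21.4% to 4.44% of the aquaporin reads. Aqp3 and Aqp7 together took 0.835% of the reads in control mIOs and 33.5% in DSS-treated mIOs (32.2 to 34.7), and Aqp1 and Aqp4 together took 35.4% there (34.2 to 36.7). Reads favour long transcripts, and per length of the longest transcript the order of these pairs turned, with 27.8% for Aqp3 and 15.9% for Aqp7 in DSS-treated mIOs against 31.4% for Aqp1 and 2.34% for Aqp4. The control share of Aqp4 was 12.6% per longest and 35.7% per median transcript length. The share of Aqp11 was 5.72% in control and 30.8% in DSS-treated mIOs, while its own level was 1.43-fold higher.

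**Figure D3:**
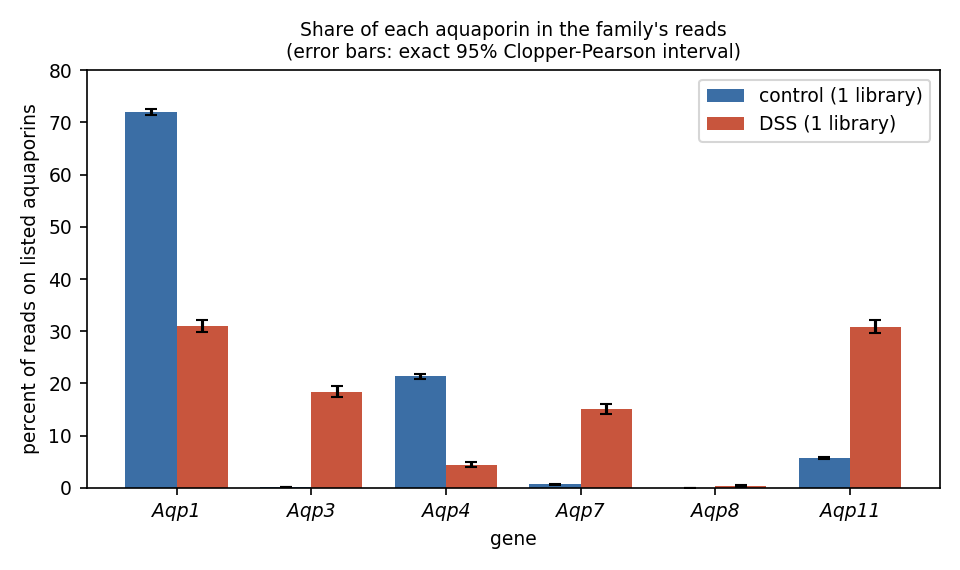
Percent of all reads on the 6 listed aquaporins that fell on each, in the control library (blue) and the DSS library (red), with exact 95% Clopper-Pearson intervals. Aqp1 drops from 72.0% to 31.0%, while Aqp3, Aqp7 and Aqp11 reach 18.4%, 15.1% and 30.8% in the DSS library.

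Few stretches of the aquaporin transcripts occur in other genes. Of the 50-base stretches in the coding transcripts of Aqp1, Aqp4, Aqp8 and Aqp11, 0 occur in transcripts of another gene. For Aqp3 this was 3 of 1716 and for Aqp7 107 of 2503 (4.27%), none of them in another aquaporin. No annotated gene shares exonic bases with a listed aquaporin. The strand setting of the authors' counting is not given in the sources used here.

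Water follows solutes, so genes of solute transport were read beside the aquaporins. Over all genes tested, 19.3% were at least 2-fold higher and 20.2% lower, which is the background for this and the following lists. Of 15 listed genes of ion and solute absorption, 12 were at least 2-fold higher in the DSS library and 0 lower. Their median log2 ratio was 1.61, against -0.06 over all genes tested. The largest differences were those of Slc15a1, the peptide transporter, at 4.66 with 396 and 7660 counts, and of Slc2a2, the basolateral glucose transporter, at 2.98 with 3626 and 21815 counts. The sodium-glucose cotransporter Slc5a1 was at 2.88. Slc9a3, the apical sodium-proton exchanger, was at 2.23.

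The list of chloride and fluid secretion was split in direction, with 5 of 15 listed genes at least 2-fold higher and 5 at least 2-fold lower, and a median of -0.35. The lower genes were the chloride channel Cftr at -2.19, the cotransporter Slc12a2 at -3.25 and the potassium channel genes Kcnq1 at -2.55, Kcne3 at -3.37 and Kcnn4 at -3.14. Higher were Guca2b, the uroguanylin gene, at 3.71 and the receptor gene Vipr1 at 3.59, the largest differences of this list. Guca2a, which encodes guanylin, was at 3.58, the kinase gene Prkg2 at 1.08 and the chloride channel Clcn2 at the line with 1.001. The chloride channel Ano1 was just under the line in the other direction, at -0.99.

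For the aquaglyceroporins, 18 genes of glycerol and glycerolipid metabolism were read. At least 2-fold higher were 10 of them and 1 was lower, with a median log2 ratio of 1.25. Gk, the glycerol kinase, went from 1595 to 9693 counts and was at 2.99. Dgat1, which makes triglyceride, was at 2.44 with 9281 and 38587 counts. The lower gene was Gpd1l at -1.37. Lipe and Pnpla2, lipases that free fatty acids from stored fat, were at 1.29 and 0.42. Mgll, the monoglyceride lipase, was at 0.34, from 608 to 586 counts.

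Of 19 listed genes that make or remove hydrogen peroxide, 7 were at least 2-fold higher and 2 lower, with a median of 0.40. The count lower was under the share of 20.2% over all genes tested. The peroxide-producing oxidase Duox2 at 3.63 and its maturation factor Duoxa2 at 3.20 were the highest, and the lower genes were the peroxidase Prdx4 at -2.98 and the glutathione peroxidase Gpx2 at -2.30. In the list of osmotic stress and cell volume, 1 of 18 genes was at least 2-fold higher and 2 were lower, with a median of 0.18. Both counts were under the shares over all genes tested (19.3% and 20.2%). Nfat5, the transcription factor of the hypertonic response, was at 1.24, and its target Akr1b3, the aldose reductase gene, at -1.30. With total counts the median of this list was -0.08.

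**Figure D4:**
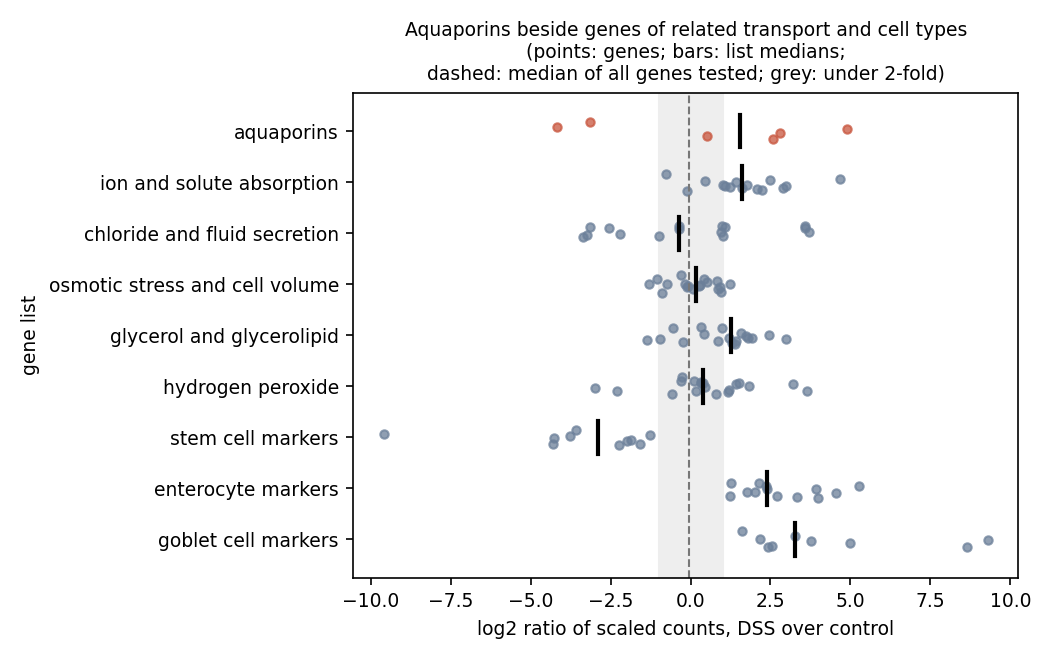
Log2 ratios, DSS-treated over control mIOs, of the 6 listed aquaporins (red) and of genes in 5 transport and metabolism lists and 3 cell marker lists (blue-grey), each point 1 gene that reached 10 counts in either library, with list medians as black bars. The aquaporins span -4.18 to 4.90, the absorption list lies mostly above 1 with a median of 1.61, and the secretion list extends to both sides around a median of -0.35.

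Over these 2 libraries, likeness between genes reduces to the distance of 2 log2 ratios. Among 153 list genes, Aqp4 was nearest to Axin2, a WNT target, at -4.26 (-4.41 to -4.11), and Aqp3 to Muc2, the main intestinal mucin, at 4.98 (4.91 to 5.04). Neither is singled out within counting error. The interval of Aqp4 (-4.37 to -4.00) also holds Ascl2 at -4.31. That of Aqp3 (4.47 to 5.37) also holds Apoa1 at 5.27, Apoa4 at 4.54 and Slc15a1 at 4.66. The gene nearest to Aqp1 was the potassium channel gene Kcnn4 at -3.14, which has 44 counts in DSS-treated mIOs and an interval from -3.62 to -2.69, and that nearest to Aqp7 was Pecam1 at 2.58 (1.67 to 3.62), so other genes lie as near within counting error. For Aqp8 no nearest gene is given, since its own interval runs from 0.999 to 5.22. For the marker lists that follow, 19.3% of all genes tested were at least 2-fold higher and 20.2% lower. Paneth cell markers had a median of -1.19 (7 of 9 at least 2-fold lower, with Defa17 at -3.87 and Defa22 at -2.95). Tuft cell markers had a median of -1.04 (4 of 8 lower, with Pou2f3 at -2.20 and Trpm5 at -0.88). Enteroendocrine markers had a median of 2.32 (9 of 10 higher, with Gcg at 3.04, and Neurog3 lower at -3.14). The listed mesenchymal markers summed to 1.44 CPM in control and 2.10 CPM in DSS-treated mIOs (Pdgfrb at 0.32), immune markers to 12.3 and 23.4 CPM (Itgam at 1.14, Cd68 at 0.73), and gastric or Brunner gland markers to 3.14 and 2.29 CPM (Tff2 at -1.005).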

How the data were processed

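Libraries were made with a stranded mRNA kit. The deposited values are raw counts for each NCBI gene, and the FPKM-named file of each sample repeats them for all 19294 genes. The submitters' processing notes name HISAT2 and StringTie, while versions, genome build and counting settings are not given in the sources used here. Counts were scaled with TMM factors (1.09 control, 0.915 DSS) in edgeR 4.0.16 under R 4.3.3. Ratios, Clopper-Pearson and Poisson intervals were computed in Python 3.11.15 with scipy 1.17.1. The ratios and their intervals were run on simulated Poisson counts with few changed genes. Such counts hold no variation between cultures, so this run checks the computation only. Counts of genes cover those reaching 10 counts in either library. The members and the 19 gene lists were chosen with earlier results of these data known. Named list genes are the 2 with the largest absolute ratio per list among those with at least 50 counts, and the nearest to each aquaporin. Some of these are not reported here. Other list genes, Aqp9 among the aquaporins and the promoter letters were added after values were seen. Transcript lengths and locations are from GENCODE vM21 (GRCm38) by symbol. Alternatives used size factors of DESeq2 1.42.0, upper quartile factors, total counts, median centring, a prior count of 2, thinning, other filters and lines, and other transcript lengths. Plots used matplotlib 3.10.9.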

Additional observations from a re-analysis of the deposited data

How the results depend on the processing

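Each group is 1 library, so culture-to-culture variation is not measured and depth limits mainly Aqp8 and the control value of Aqp3. No paired analysis was possible because each group has 1 library and no test was made. Every listed aquaporin kept its direction under every alternative, with log2 ratios from -3.39 to -3.04 for Aqp1, 4.64 to 4.99 for Aqp3, -4.44 to -4.09 for Aqp4, 2.32 to 2.67 for Aqp7, 2.14 to 3.25 for Aqp8 and 0.26 to 0.61 for Aqp11. The count of aquaporins at least 2-fold higher was 3 under every alternative except the minimum of 10 counts in both libraries, where it was 2, and the count lower was 2 throughout. With total counts, the ratios of Aqp1, Aqp4, Aqp7 and Aqp11 (-3.39, -4.44, 2.32 and 0.26) and of the family sum (-2.17) left their counting intervals, as did Aqp1 (-3.04) and the sum (-1.82) with upper quartile factors and the sum (-1.86) with median centring, by the construction of these scalings. At the 4-fold line 1356 genes were higher and 1127 lower. With the median transcript length, Aqp4 stood at 64.6 and 3.56 CPM per kb (control and DSS), Aqp11 at 9.49 and 13.6, and Aqp7 at 6.58 in the DSS library. With total counts, the list medians were 1.36 (absorption), -0.60 (secretion), 0.996 (glycerol), 0.14 (peroxide) and -0.075 (osmotic stress, the only reversal).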

Other observations

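Aqp3 and Aqp7 are neighbours. In GENCODE vM21 (GRCm38), Aqp7 lies on chromosome 4 from 41033074 to 41048139 and Aqp3 from 41092722 to 41098183, both on the minus strand, and RefSeq lists no protein-coding gene between them. Both were higher in the DSS library, at log2 ratios of 2.57 and 4.90. The 3 protein-coding genes on either side, chosen after these values were seen, did not share this difference. On the side of Aqp7, Nfx1 was at -0.54, Chmp5 at 0.55 and Bag1 at 0.12. On the side of Aqp3, Nol6 was at -1.15, Ube2r2 at 0.06 and Ubap2 at -1.03. The other listed members lie apart from this pair, with Aqp1 on chromosome 6 from 55336432 to 55348555 (plus strand), Aqp8 on chromosome 7 from 123462291 to 123468004 (plus strand) and Aqp11 on chromosome 7 from 97724006 to 97738289 (minus strand).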
